A study of Mus musculus with 32 samples.

Results

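The oligodendrocyte lineage was followed in primary mouse cortical neuron cultures through 30 genes out of the 49671 genes counted. The list was taken by gene symbol and holds 10 genes of the oligodendrocyte precursor cell (Pdgfra, Cspg4, Olig1, Olig2, Sox10, Gpr17, Cspg5, Matn4, C1ql1 and Lhfpl3) and 20 genes of later stages, from committed precursors to myelin (Enpp6, Nkx2-2, Nkx6-2, Bcas1, Tcf7l2, Myrf, Mbp, Mag, Mog, Mobp, Cnp, Cldn11, Ugt8a, Opalin, Ermn, Sirt2, Tspan2, Fa2h, Gjc3 and Mal). The neurons were prepared from the forebrain of wild-type C57BL/6 embryos at E17–18 and kept in serum-free Neurobasal medium with B27. They were left untreated or were incubated for 6 h or 5 d with an oligoribonucleotide at 10 µg/mL, which was miR-92a-1-5p in 1 set of groups, miR-124-5p in another and, as control, the mutated Mut.oligo in the last. Values given below as triples follow this order. Each of the 8 groups holds 4 libraries that the labels call biological replicates. The study asked how extracellular microRNAs change gene expression in neurons. The 3 oligoribonucleotides were synthetic and carried phosphorothioate bonds, so that Mut.oligo is the reference for the addition of such an RNA whatever its sequence. The cells were not sorted, and the mRNA counts do not hold the added RNA, so which libraries received it rests on the labels. At 5 d the labels miR-124-5p and Mut.oligo appear exchanged relative to the paper's gene lists, as given below, and every 5 d result here keeps the labels.

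Oligodendrocyte precursor cells arise in the embryonic forebrain, divide in response to PDGF-AA through the receptor encoded by Pdgfra, and are carried as a minor population into cultures of cortical tissue. Olig2 and Olig1 are basic helix-loop-helix transcription factors that specify the lineage, and Sox10 acts with them and later with Myrf to switch on the genes of the myelin sheath, among them Mbp, Mag, Mog, Mobp and Cnp. Gpr17 marks the committed precursor that has left the cycle but has not yet made myelin.

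miR-92a-1-5p is the less abundant strand of a microRNA precursor on mouse chromosome 14, and its mature sequence is shown because its seed, the bases 2 to 8 that pair with a target, can be looked for in the members. The RefSeq entry for Mir92-1 (GRCm38.p6, chr14:115044437-115044459, plus strand) reads as follows, with the seed in capitals.
miR-92a-1-5p: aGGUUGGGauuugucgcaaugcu
The DNA complement of this seed is CCCAACC. It occurred in at least 1 annotated 3′UTR of 6 of 30 members (20%) and of 1965 of 20870 genes (9.42%). The longest 3′UTR of a gene had a median length of 1318 bases in the members and 965 bases in all genes. Only the transcript strand was searched. The members with a match were Gpr17, Cspg5, Enpp6, Tcf7l2, Myrf and Mobp. No match was found in Pdgfra, Olig1, Olig2 or Sox10, the genes on which the results below turn. The matches of Cspg5, a precursor proteoglycan, and Myrf, the transcription factor of myelin genes, are shown with the flanking bases and the match in capitals (Cspg5 site at chr9:110261968-110261974 on the plus strand, Myrf site at chr19:10208520-10208526 on the minus strand, GRCm38).
Cspg5: tatgaccggctCCCAACCacctaggagag
Myrf: atatagcccccCCCAACCccccagcacag
A match of 7 letters is a description of sequence and not a shown target site.

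The libraries held 24514090 to 73626029 counts, so that 3 counts correspond to 0.0407 to 0.122 CPM (counts scaled to the size of the library). No pair of the 48 pairs of libraries within a group was identical. The labels give every library an experiment batch. At both times libraries of the same batch deviated from their group means together (median correlation across genes 0.61 at 6 h and 0.47 at 5 d), which libraries of different batches did not (median -0.15 and -0.17). All 11 neuronal markers were detected, with summed levels of 5820 to 8610 CPM at 5 d. The sums were 1770 to 3160 CPM for 9 astrocyte markers and 907 to 1270 CPM for 9 radial glia and progenitor genes. They were 429 to 665 CPM for the 10 precursor members and 29.6 to 50.6 CPM for 9 microglial markers. Within the precursor sum Cspg5, which neurons also express, was alone at 335 to 485 CPM. Sums over different genes do not give the shares of cells. In bulk RNA, fewer cells of a type and less RNA per cell cannot be told apart. The 6 h and 5 d columns behaved differently where genes overlap on opposite strands. Of 164 genes that have at least 50% of their exon bases under exons of the other strand and at least 10 counts in each of the 16 libraries at 5 d, 16 (9.76%) had 0 counts in all 16 libraries at 6 h, compared with 4 of 14702 other genes (0.0272%). Med10, such a gene chosen after its values were seen, had 0 counts at 6 h and 1412 to 2480 counts at 5 d. The methods state strand-specific counting for all libraries. Comparisons within a time point use columns of the same kind, but values at 5 d against 6 h carry this limit.

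In the untreated libraries the members spanned a wide range of levels on a scale of CPM per kb of exon, with precursor and later-stage genes interleaved. At 5 d Olig1 had the highest mean of the members (39.8 ± 4.59 CPM per kb, SD, n = 4), followed by Cspg5 (37.4 ± 2.77), and the libraries of these neighbours overlapped. Sirt2, a deacetylase found in myelin but also used by neurons, came next (18.4 ± 1.95 CPM per kb) and did not overlap with Olig2 (11.7 ± 0.97 CPM per kb), whereas Olig2 and Lhfpl3 (11.3 ± 1.07) did. Cnp, the myelin-associated phosphodiesterase, was at 6.93 ± 1.12 CPM per kb, the tetraspanin Tspan2 at 5.09 ± 0.386 and Pdgfra at 3.15 ± 0.503. Mbp, whose locus also gives transcripts outside the lineage, was at 2.64 ± 0.166 CPM per kb. At the low end were Mobp, Fa2h, Enpp6, Mag, Opalin and Mog, all with means of 0.00247 to 0.0273 CPM per kb. In the untreated libraries at 5 d Mag had 2 to 5 counts and Fa2h 1 to 5. Opalin had at most 2 counts and Mog at most 1, and both had 0 counts in 3 of the 4 libraries. At 6 h the first 5 places were held in the same order, by Olig1 (32 ± 11.8 CPM per kb), Cspg5 (25.3 ± 2.34), Sirt2 (16.2 ± 0.484), Olig2 (14 ± 3.79) and Lhfpl3 (8.14 ± 0.903), and Pdgfra was next (6.46 ± 2.12).

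**Figure D1:**
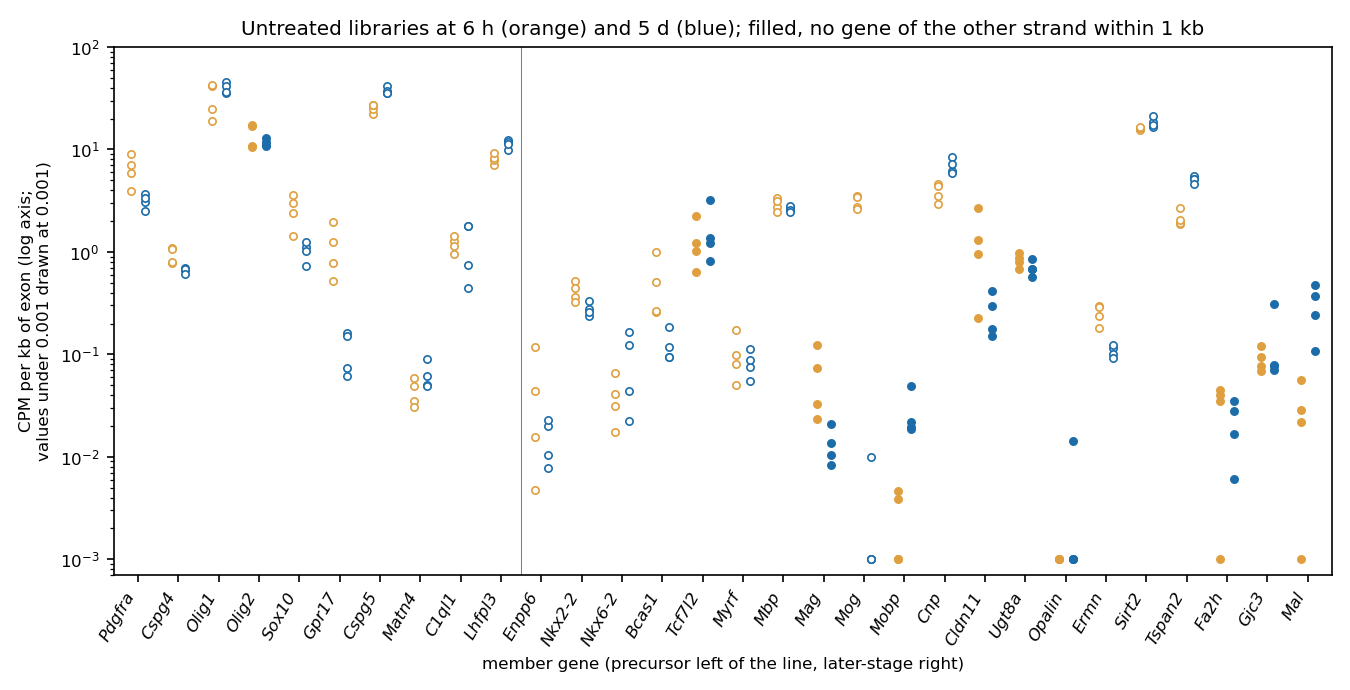
Levels of the 30 members in the 4 untreated libraries at 6 h (orange) and at 5 d (blue), as CPM per kb of exon on a log axis, with values under 0.001 drawn at 0.001. Filled points are members with no annotated gene of the other strand within 1 kb, and Olig1 and Cspg5 stand highest at both times, and the lowest mean is that of Opalin at 6 h and of Mog at 5 d.

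After 5 d the receptor gene Pdgfra fell with each of the 3 oligoribonucleotides when the experiment batch was in the fit. The planned edgeR fit without a covariate called no member. Counts were compared by edgeR's quasi-likelihood test over all genes, and a gene was called when the Benjamini-Hochberg adjusted p was under 0.05 and the log2 fold change above 0.5 or below -0.5. Without a covariate 26 members passed the filter on low counts and 0 of them was called after miR-92a-1-5p (0.00517% of all genes tested). The same count of 0 was found for miR-124-5p (0%) and for Mut.oligo (0%). At an unadjusted p under 0.05 the members numbered 4 (3.63% of all genes), 3 (2.6%) and 6 (2.79%), all of them lower than untreated. With the experiment batch as covariate, 4 of 26 members fell after miR-92a-1-5p (Pdgfra, Olig1, Olig2 and Sox10; 0.347% of all genes fell), 2 after miR-124-5p (Pdgfra and Olig2; 0.0259%) and 1 after Mut.oligo (Pdgfra; 0.0466%), and 0 members rose. DESeq2 with the same covariate gave 5 (0.595%), 3 (0.0828%) and 2 (0.0983%), adding Cspg4 after miR-92a-1-5p and Mut.oligo and Sox10 after miR-124-5p. DESeq2 without the covariate called 2 members (0.166% of all genes), 0 (0%) and 0 (0.0155%). The 3 comparisons share the 4 untreated libraries.

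The miR-92a-1-5p and the miR-124-5p library numbered 1 formed a batch without untreated cells and held the highest level of their group for Pdgfra, Cspg4, Olig1, Olig2, Sox10 and Gpr17. A second batch without untreated cells held the libraries numbered 3 of the 3 exposed groups, and its Pdgfra levels were the lowest of each group (6.95, 7.75 and 7.09 CPM). Without a covariate, leaving out the first of these batches called 4 members (0.333% of all genes), 2 (0.0312%) and 1 (0.0208%), which were the genes named above. Leaving out the second called 0 in all 3 comparisons (0%). Leaving out both called 2 members, Pdgfra and Olig2 (0.0422%), then 0 (0%), then 1, Pdgfra (0.0105%). When only the 10 libraries of batches with untreated and exposed cells were kept, with the covariate, 5 (0.536%), 2 (0.0425%) and 2 members (0.0743%) were called. The libraries untreated 3 at 5 d, and at 6 h Mut.oligo 4 and miR-124-5p 3, were alone in their batch and carry no information in the fits with batch. These alternatives were chosen after seeing the data.

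Pdgfra encodes the receptor for PDGF-AA, the mitogen of the precursor cell (chr5:75152292-75198215, plus strand, GRCm38). In the untreated libraries numbered 1 to 4 it was at 30.8, 36.9, 33.6 and 24.96 CPM after 5 d. After Mut.oligo it was at 9.46, 14.9, 7.09 and 10.2 CPM. After miR-124-5p it was at 21.8, 9.499, 7.75 and 10.3 CPM. After miR-92a-1-5p it was at 30.4, 7.66, 6.95 and 8.29 CPM, where the library numbered 1 lay within the untreated range and the other 3 far below it. The Mut.oligo and miR-124-5p libraries did not overlap with the untreated libraries. With the batch in the fit, the log2 fold change was -1.58 (SE 0.151, edgeR adjusted p = 0.000636) after miR-92a-1-5p, -1.53 (SE 0.147, adjusted p = 0.0029) after miR-124-5p and -1.47 (SE 0.134, adjusted p = 0.000821) after Mut.oligo. Without a covariate the values were -1.22 (SE 0.414), -1.33 (SE 0.415) and -1.60 (SE 0.418), none called. Within the batches that held untreated cells, Pdgfra was lower in 2 of 2 after miR-92a-1-5p (log2 differences -2.01 and -1.59), in 2 of 2 after miR-124-5p (-1.70 and -1.28) and in 3 of 3 after Mut.oligo (-1.70 to -1.29). Leaving out each of the 16 libraries in turn with the batch in the fit kept the Pdgfra call in 16 of 16 fits after miR-92a-1-5p and after Mut.oligo, and in 15 of 16 after miR-124-5p, where it was lost without the untreated library numbered 1. An exon stretch of 30 bases (0.299% of the exons of Pdgfra) is shared with Mir7025 on the same strand.

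The 250 bases before the RefSeq start of Pdgfra (chr5:75152001-75152250, plus strand, GRCm38.p6) are shown because Olig1 and Olig2, members of the same list, bind DNA as basic helix-loop-helix factors at the letters CANNTG, given in capitals.
Pdgfra: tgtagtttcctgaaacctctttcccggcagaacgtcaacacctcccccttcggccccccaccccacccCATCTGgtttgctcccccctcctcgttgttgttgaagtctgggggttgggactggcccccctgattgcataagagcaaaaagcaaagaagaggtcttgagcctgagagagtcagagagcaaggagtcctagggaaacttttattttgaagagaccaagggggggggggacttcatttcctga
The window holds 1 match, and 66.2% of 32851 promoter windows of this length hold at least 1, the motif reading the same on both strands. Such a match is a description of letters and not a binding site.

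Olig2, which sets the identity of the lineage (chr16:91225457-91228677, plus strand), had the smallest standard error of the called genes. The untreated libraries were at 32.8, 29.9, 28.1 and 27.3 CPM after 5 d. The miR-92a-1-5p libraries were at 22.8, 14.2, 12.1 and 13.0 CPM, all below every untreated library. The Mut.oligo libraries (20.3, 23.5, 19.5 and 22.0 CPM) were also below, and among the miR-124-5p libraries (29.96, 21.2, 18.4 and 19.9 CPM) the one numbered 1 overlapped with untreated. With the batch in the fit, Olig2 fell by 1.07 on the log2 scale after miR-92a-1-5p (SE 0.0771, edgeR adjusted p = 0.000104) and by 0.53 after miR-124-5p (SE 0.0757, adjusted p = 0.0474). After Mut.oligo the difference of -0.45 (SE 0.069, adjusted p = 0.0462) stayed inside the fold threshold. Without a covariate the values were -0.91, -0.38 and -0.47. When each of the 16 libraries was left out in turn with the batch in the fit, the Olig2 call was kept in 16 of 16 fits after miR-92a-1-5p but in 3 of 16 after miR-124-5p.

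Olig1 is the neighbour of Olig2 on chromosome 16 (chr16:91269772-91271933, plus strand) and supports the maturation of the lineage. It was at 98.6, 89.1, 76.9 and 79.5 CPM in the untreated libraries after 5 d and at 64.2, 56.3, 36.5 and 39.0 CPM after miR-92a-1-5p. These groups did not overlap. The Mut.oligo libraries (66.5, 67.8, 65.5 and 64.8 CPM) lay close together below the untreated range, and the miR-124-5p libraries (87.7, 71.1, 54.7 and 61.4 CPM) overlapped with it through the library numbered 1. In the fit with batch Olig1 fell by 0.94 on the log2 scale after miR-92a-1-5p (SE 0.0907, edgeR adjusted p = 0.000636). The values after miR-124-5p (-0.43, SE 0.0903, adjusted p = 0.255) and Mut.oligo (-0.37, SE 0.0829, adjusted p = 0.346) did not pass.

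Sox10, the transcription factor that the lineage keeps into myelination (chr15:79154908-79165240, minus strand), was at a lower level than the genes above. The untreated libraries were at 3.37, 3.12, 3.82 and 2.20 CPM after 5 d, and the miR-92a-1-5p libraries at 3.79, 1.15, 0.884 and 0.770 CPM. The library numbered 1 was within the untreated range and the other 3 below it. The miR-124-5p libraries showed the same arrangement (3.09, 1.08, 1.38 and 1.09 CPM), and the Mut.oligo libraries were at 1.20, 2.59, 1.67 and 1.17 CPM. With the batch in the fit Sox10 fell by 1.36 on the log2 scale after miR-92a-1-5p (SE 0.233, edgeR adjusted p = 0.0272). The call was kept in 9 of the 16 fits that left out 1 library. After miR-124-5p the value was -1.26 (SE 0.228, adjusted p = 0.119) and after Mut.oligo -0.84 (SE 0.201, adjusted p = 0.395).

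Cspg4 (NG2), the surface proteoglycan that defines the precursor and is also made by pericytes, was at 8.27, 7.95, 8.21 and 7.21 CPM in the untreated libraries after 5 d. The Mut.oligo libraries (6.30, 5.29, 4.24 and 3.87 CPM) were all lower. In the groups of miR-124-5p (9.90, 6.54, 3.69 and 4.88 CPM) and miR-92a-1-5p (10.9, 5.68, 3.56 and 4.35 CPM) the library numbered 1 was above and the other 3 were below every untreated library. The edgeR values with batch were -0.59 (SE 0.12, adjusted p = 0.0558) after miR-92a-1-5p, -0.52 (SE 0.118, adjusted p = 0.293) after miR-124-5p and -0.57 (SE 0.109, adjusted p = 0.175) after Mut.oligo, none called, while DESeq2 with batch called the change after miR-92a-1-5p (adjusted p = 0.00467) and Mut.oligo (adjusted p = 0.00884). Gpr17 was at 0.318 to 0.842 CPM in the untreated libraries and at 0.0727 to 0.247 CPM after Mut.oligo, without overlap. Its values with batch were -1.30 (SE 0.415, edgeR adjusted p = 0.26) after miR-92a-1-5p, -1.99 (SE 0.431, adjusted p = 0.276) after miR-124-5p and -1.46 (SE 0.384, adjusted p = 0.572) after Mut.oligo, none called.

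**Figure D2:**
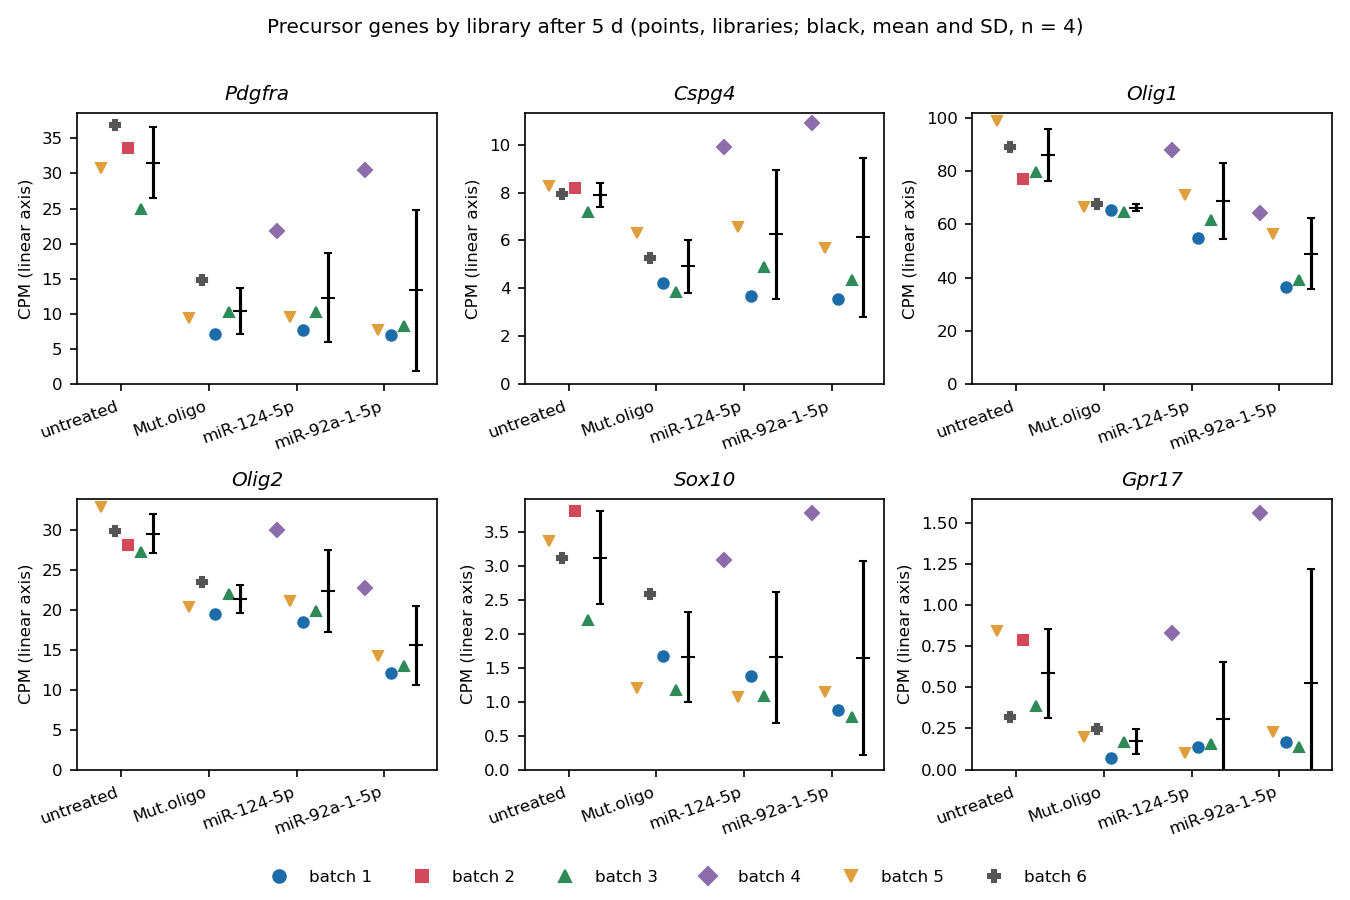
Levels of 6 precursor genes in the 16 libraries at 5 d, in CPM on linear axes, with a symbol for each experiment batch and the mean and SD of the 4 libraries of a group in black (bars end at the axis). The libraries of batch 4, which holds no untreated cells, stand at the top of their groups, and the other exposed libraries lie below the untreated libraries for Pdgfra.

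None of the remaining precursor genes was called. Cspg5 (neuroglycan C), which neurons also express, was at 355 to 416 CPM in the untreated libraries after 5 d and had log2 fold changes of -0.14, -0.04 and -0.03 with batch. The matrix protein gene Matn4 (-0.64, -0.29 and -0.40), C1ql1, a secreted C1q-like protein (-0.35, -0.28 and -0.31) and Lhfpl3 (-0.06, -0.18 and -0.13) did not pass. In the fits with batch all 10 precursor genes had values below 0 in each of the 3 comparisons, with medians of -0.79, -0.48 and -0.43, while the medians of all 19333 genes were -0.01, -0.00 and -0.00. Without a covariate 10, 9 and 10 of the 10 were below 0, with medians of -0.46, -0.31 and -0.55. The members were chosen with earlier results of these data known, and the paper lists Pdgfra, Cspg4, Olig2 and Sox10 as lower at 5 d. The 3 comparisons also share the untreated libraries. These counts are therefore a description and no independent test of the lineage, and the share of all genes below 0 was not determined.

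Of the 20 later-stage genes, 16 were tested at 5 d and 0 was called by edgeR with or without the batch. With the batch, 12, 10 and 12 of the 16 were below 0, with medians of -0.23, -0.06 and -0.18. At an unadjusted p under 0.05 they numbered 2 (10.8% of all genes), 1 (4.79%) and 2 (4.2%). Mbp, encoding myelin basic protein, was at 20.6 to 23.7 CPM in the untreated libraries and at 19.9 to 25.2 CPM in the exposed libraries, with log2 fold changes of 0.10, 0.10 and 0.01. Cnp had -0.37 (SE 0.0747, edgeR adjusted p = 0.0535) after miR-92a-1-5p, -0.28 (SE 0.0748, adjusted p = 0.475) after miR-124-5p and -0.21 (SE 0.0684, adjusted p = 0.868) after Mut.oligo, and it was lower than the untreated library in every shared batch. Cldn11, the claudin of the myelin sheath, had -1.23 (SE 0.362, adjusted p = 0.222) after miR-92a-1-5p from levels of 0.128 to 0.333 CPM against 0.286 to 0.775 CPM in untreated libraries. Ugt8a, which makes galactocerebroside, had -0.30, -0.23 and -0.43 (edgeR adjusted p = 0.469, 1 and 0.702). Tcf7l2 (0.07, 0.03 and 0.06), Sirt2 (-0.08, -0.05 and -0.01) and Tspan2 (0.09, -0.04 and -0.05) were close to 0. The homeobox genes Nkx2-2 (-0.72, -0.43 and -0.51) and Nkx6-2 (0.17, 0.90 and -0.15), Myrf (-0.38, -0.14 and -0.32), Bcas1 (-0.32, -0.07 and -0.01), Ermn (-0.17, 0.04 and -0.29), Gjc3 (-0.28, -0.54 and -0.43), Mal (-0.67, -0.16 and 0.00), Enpp6 (-0.18, 0.21 and -0.86) and Mobp (-0.18, 0.40 and 0.17) did not pass. After Mut.oligo the libraries of Nkx2-2 (at most 0.576 CPM, untreated at least 0.678), Ugt8a (2.31 and 2.57) and Gjc3 (0.256 and 0.303) did not overlap with untreated either. Groups without overlap were thus found outside the precursor genes too, and their share among all genes was not determined. Mag, Mog, Opalin and Fa2h were too low to be tested at 5 d, and a difference in them was not detectable at this depth.

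**Figure D3:**
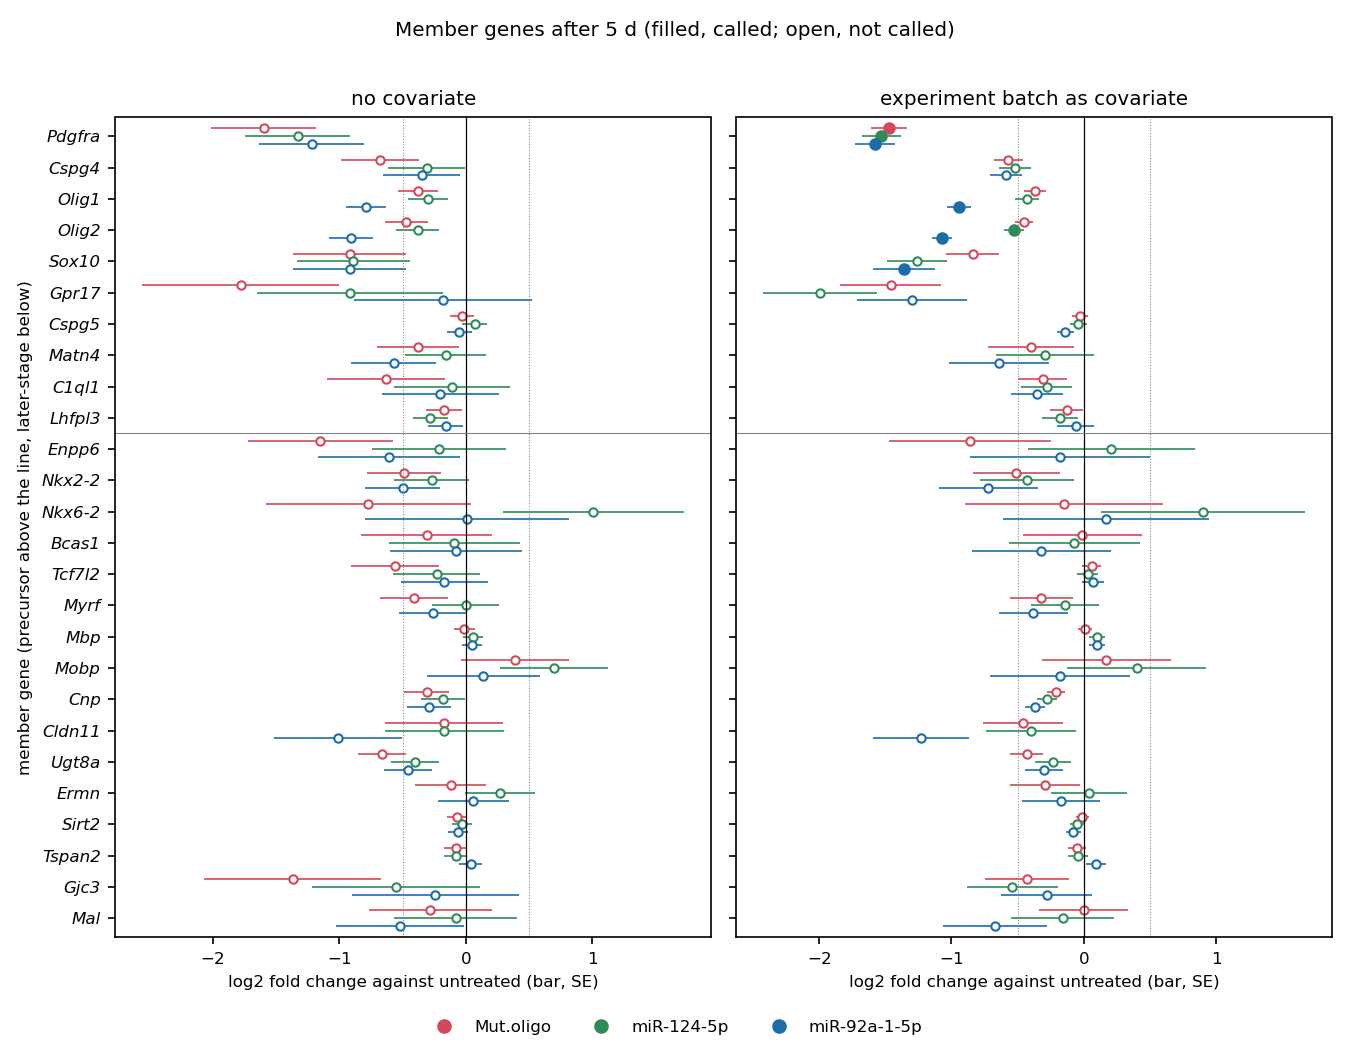
Log2 fold change against untreated at 5 d of the 26 members tested, without a covariate (left) and with the experiment batch (right), bars showing SE, filled points called and open points not called. The precursor genes above the horizontal line lie to the left of 0 for all 3 oligoribonucleotides in the right panel, and the filled points are Pdgfra, Olig1, Olig2 and Sox10.

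The exposed groups were also compared with each other at 5 d, where all received the same concentration for the same time. Olig2 was lower after miR-92a-1-5p than after Mut.oligo (log2 difference -0.62, SE 0.0705, edgeR with batch adjusted p = 0.018) and than after miR-124-5p (-0.55, SE 0.065, adjusted p = 0.0157). By edgeR it was the only member called in either comparison (0.0103% of all genes in each) and 0 members were called between miR-124-5p and Mut.oligo (0%). The edgeR fit without covariate called 0 members in all 3 comparisons, with 2 members at an unadjusted p under 0.05 for miR-92a-1-5p against Mut.oligo (1.98% of all genes), 2 against miR-124-5p (2.29%) and 1 in the remaining comparison (1.68%). DESeq2 with batch called Olig1 and Olig2 as lower for miR-92a-1-5p against Mut.oligo (0.0569% of all genes) and against miR-124-5p (0.0517%), and 0 in the remaining comparison (0%). Olig1 was lower by a similar amount without passing (-0.57, SE 0.082, adjusted p = 0.0746 against Mut.oligo and -0.51, SE 0.0758, adjusted p = 0.117 against miR-124-5p). Pdgfra differed by -0.11 (SE 0.143) between miR-92a-1-5p and Mut.oligo, by -0.05 (SE 0.129) when miR-92a-1-5p was set against miR-124-5p and by -0.07 (SE 0.139) between miR-124-5p and Mut.oligo, none called.

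After 6 h no member was called against untreated. Of 27 members tested, 0 was called by edgeR without covariate for miR-92a-1-5p (0% of all genes), and likewise for miR-124-5p (0%) and Mut.oligo (0%). With the batch 0 was called as well (0.208%, 0% and 0.0213% of all genes), and DESeq2 with or without the batch also called 0. At an unadjusted p under 0.05 without covariate the members numbered 0 (4.75% of all genes), 1 (4.54%) and 1 (9.49%), which was Ugt8a after miR-124-5p (-0.39, SE 0.133) and Mut.oligo (-0.47, SE 0.135). With the batch they numbered 3 (13.4%), 2 (5.79%) and 1 (8.47%). The medians of the members without covariate were -0.01, 0.05 and -0.08.

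The levels of the precursor genes at 6 h varied with the batch. Pdgfra was at 39.6, 70.4, 58.8 and 90.3 CPM in the untreated libraries, at 94.5, 44.4, 30.1 and 67.8 CPM after Mut.oligo, at 89.7, 32.4, 78.7 and 63.1 CPM after miR-124-5p and at 63.0, 47.8, 98.0 and 72.0 CPM after miR-92a-1-5p. The 4 groups overlapped over nearly their whole range. The highest library of each group came from the same batch (90.3, 94.5, 89.7 and 98.0 CPM). Within batches miR-92a-1-5p differed from untreated by 0.03 to 0.27 (log2, 4 batches), and with batch in the fit the SE of the Pdgfra difference fell from 0.334 to 0.0872, with a value of 0.12. Olig1 (25.2 to 91.3 CPM over the 16 libraries), Olig2 (15.6 to 46.0), Sox10 (3.20 to 13.1) and Gpr17 (1.18 to 10.2) spread as widely. Tcf7l2, which thalamic neurons also use, spread from 5.56 to 23.0 CPM.

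**Figure D4:**
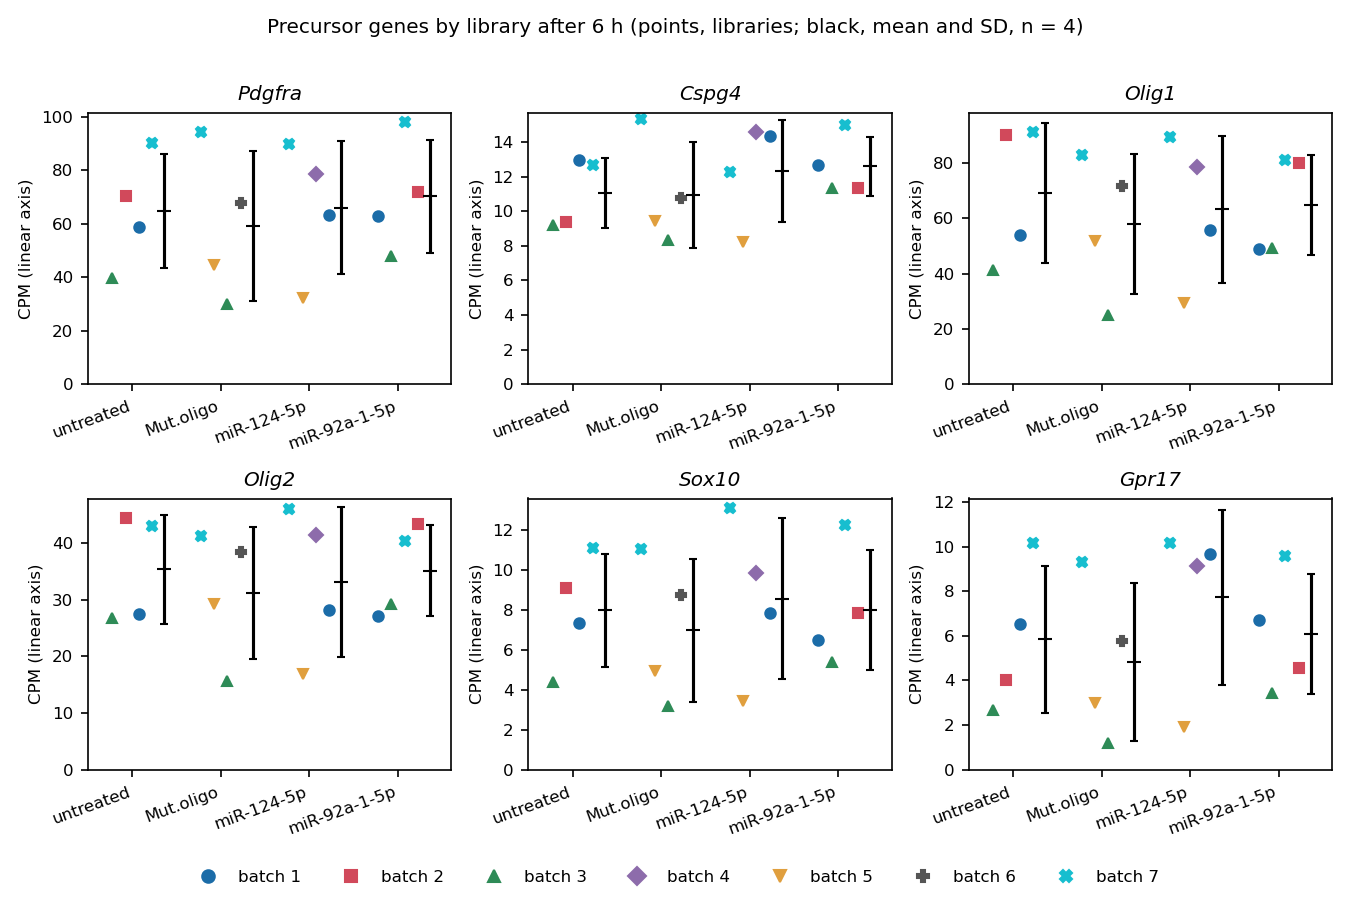
Levels of the same 6 precursor genes in the 16 libraries at 6 h, in CPM on linear axes, with a symbol for each experiment batch and the mean and SD of the 4 libraries of a group in black. Batch 7, which holds a library of every group, is at the top of each group for Pdgfra, Olig1, Sox10 and Gpr17, from 89.7 to 98.0 CPM for Pdgfra, and the groups overlap.

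The difference to untreated changed from 6 h to 5 d for Pdgfra in all 3 groups. In an edgeR fit over 32 libraries with batch, the change of the Pdgfra effect was -1.69 for miR-92a-1-5p (SE 0.196, adjusted p = 0.00057), -1.44 for miR-124-5p (SE 0.209, adjusted p = 0.0177) and -1.41 for Mut.oligo (SE 0.201, adjusted p = 0.00688). For miR-92a-1-5p the change of the Olig2 effect also passed (-1.06, SE 0.214, adjusted p = 0.0448). Of 29 members tested, 2 (0.093% of all genes), 1 (0.0049%) and 1 (0.00979%) thus had a lower effect at 5 d. Without the covariate 0 was called, with 2 (3.92% of all genes), 1 (2.64%) and 1 (5.55%) members at an unadjusted p under 0.05. This contrast is taken between differences within each time, so only a proportional difference in counting a gene between the times drops out of it. Reads of the other strand, if added to a gene at 1 time only, would not drop out. Exons of the other strand cover 6.21% of the exon bases of Pdgfra and 0% of those of Olig2. The effect of the counting on this contrast was not tested.

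Between the untreated libraries of 5 d and 6 h, 5 of 29 members were higher (19.1% of all genes) and 9 lower (14.3%) by edgeR without covariate, but time cannot be told apart from experiment batch or from the difference in the columns given above. Higher were Cspg5 (log2 fold change 0.54), Cnp (0.82), Tspan2 (1.23), Mobp (3.40) and the myelin proteolipid gene Mal (3.40). Lower were Pdgfra (-1.06), Sox10 (-1.38), Gpr17 (-3.34), Nkx2-2 (-0.60), Bcas1 (-2.08), Mag (-2.25), Mog (-9.48), Cldn11 (-2.34) and Ermn (-1.24). Mog was at 4.38 to 7.52 CPM in every library at 6 h and at most 0.0631 CPM at 5 d, and its annotated end lies 107 bases from that of Zfp57 on the other strand, which was at 85.3 to 112 CPM at 6 h and at 49.5 to 69.0 CPM at 5 d. Among the 10 members without an annotated gene of the other strand within 1 kb, 9 were tested, 2 were higher (Mobp and Mal) and 2 lower (Mag and Cldn11), all 4 of them at low levels.

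Other cell types and the cell cycle were read beside the 5 d differences, in the fit with batch. The lists were chosen with earlier results of these data known, and the paper lists Pclaf, Kdr, Tagln and Acta2 as lower at 5 d. Among the genes of the lineage outside the list, the transcription factor gene Sox8 fell after miR-92a-1-5p (-0.55, SE 0.102), and 0 of 28 tested genes were called for miR-124-5p or for Mut.oligo. The PDGF ligand gene Pdgfa was at 33.2 ± 5.02 CPM in untreated libraries (SD, n = 4) and between 29.5 and 39.1 CPM in the exposed libraries, and 0 of 5 PDGF genes was called. Of 10 proliferation genes 8 fell after miR-92a-1-5p and 1, Pclaf, after each of the others (0.347%, 0.0259% and 0.0466% of all genes fell). Their medians were -0.88, -0.61 and -0.49. Their summed level was 136 to 154 CPM in untreated libraries, 65.2 to 120 after miR-92a-1-5p, 82.2 to 117 after miR-124-5p and 86.3 to 118 after Mut.oligo. Mki67 was at 25.3 ± 2.92 CPM in untreated libraries and 12.5 ± 6.76 after miR-92a-1-5p. Neuronal markers (0 of 11 called, medians 0.09, 0.05 and 0.01), astrocyte markers (0 of 9, medians -0.23, -0.18 and -0.11) and microglial markers (0 of 9, medians -0.19, -0.08 and -0.16) did not pass. Among 7 tested endothelial markers the VEGF receptor gene Kdr fell in all 3 comparisons (-1.46, -1.01 and -1.37), with a summed level of the 8 markers of 6.34 to 12 CPM in untreated and 3.76 to 6.82 CPM in exposed libraries, while Cldn5 was at 0 to 0.134 CPM. Among 7 tested mural markers Tagln fell in all 3 (-1.89, -1.66 and -2.17) and Acta2 after miR-92a-1-5p (-2.08), with summed levels of 24.3 to 37.7 CPM in untreated and 18.1 to 31.8 CPM in exposed libraries. Meningeal fibroblast markers (0 of 8 called, medians -0.54, -0.20 and -0.31) and radial glia and progenitor genes (Nes alone fell, -0.57 after miR-92a-1-5p, of 9) completed the lists. The part of these genes in the change of the precursor genes was not tested.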

How the data were processed

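Stranded mRNA libraries were sequenced from 32 cultures in 8 groups of 4. Per the paper's methods and the submitters' processing notes, the authors aligned the reads with STAR to GRCm38 and counted them over exons, by strand, with featureCounts of Subread, and the deposited values are raw counts per gene. Counts were tested in R 4.3.3 with edgeR 4.0.16 (quasi-likelihood test, TMM scaling, limma 3.58.1), one fit over the 16 libraries of a time point and one over 32 libraries for changes between times, keeping genes that reached 5 counts in 3 or more libraries. A gene was called at a Benjamini-Hochberg adjusted p under 0.05, over all genes tested, and a log2 fold change over 0.5 in size. The planned fit had no covariate, and the experiment batch of the labels, DESeq2 1.42.0 and other settings were alternatives. CPM were scaled by TMM. SE is the log2 fold change divided by the square root of F. Symbols and positions came from GENCODE for 49412 of 49671 genes, including 30 of 30 members. All members are named, and other genes were named where a fixed list had a call or a result turned on them. The members and lists were chosen with earlier results of these data known. A result among the genes outside the members is not reported here. The scripts were tested on simulated data. Depth was 24514090 to 73626029 counts a library.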

Additional observations from a re-analysis of the deposited data

Results flagged for a closer look

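In 14 of 212 sets of 4 libraries of 1 gene and group, the highest or lowest library stood apart by Dixon's criterion, which chance gives in about 1 of 20 sets. Of these, 7 were the miR-92a-1-5p and the miR-124-5p library numbered 1 at 5 d, which share a batch without untreated cells. They were the highest of their group for Pdgfra (30.4 CPM), Sox10 (3.79), Gpr17 (1.56) and Gjc3 (1.30 CPM) after miR-92a-1-5p, and for Sox10 (3.09), Gpr17 (0.83) and Nkx6-2 (0.915 CPM) after miR-124-5p.

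The other 7 were single libraries. At 6 h these were Gpr17 in miR-124-5p 2 (lowest, 1.89 CPM), Matn4 in Mut.oligo 1 (lowest, 0.0802), Enpp6 in miR-124-5p 1 (highest, 0.862), Ermn in miR-92a-1-5p 4 (highest, 0.972) and Mal in Mut.oligo 4 (highest, 0.359 CPM). At 5 d these were Mobp in untreated 4 (highest, 0.336) and Gjc3 in untreated 3 (highest, 1.36 CPM).

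The effect against untreated differed between 6 h and 5 d for Pdgfra in all 3 groups (-1.69, -1.44 and -1.41 on the log2 scale), and for Olig2 with miR-92a-1-5p (-1.06), by edgeR with the batch. Without the batch none of the 4 was called.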

How the results depend on the processing

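After miR-92a-1-5p at 5 d, 0 members were called without a covariate, 4 with the experiment batch, 2 with a replicate block, 1 with no filter on low counts, 2 by DESeq2 and 5 by DESeq2 with batch, and 0 to 3 when 1 library was left out (3 without miR-92a-1-5p replicate 1). After miR-124-5p and Mut.oligo the batch gave 2 and 1, and DESeq2 with batch 3 and 2. Without a covariate, leaving out the batch of libraries numbered 1 gave 4, 2 and 1, the batch numbered 3 gave 0, 0 and 0, and both gave 2, 0 and 1. Shared batches alone, with the covariate, gave 5, 2 and 2. Leaving out 1 library with the batch in the fit gave 3 to 5, 0 to 3 and 1 to 2. miR-92a-1-5p against Mut.oligo and against miR-124-5p gave 1 with batch and 2 by DESeq2 with batch. The changes of effect gave 2, 1 and 1 with batch. For 5 d against 6 h the 14 calls became 7 with at least 10 counts in every library, 4 among members without a gene of the other strand within 1 kb, and 11 to 15 with 1 library left out. With the batch in the fit 2 values reversed, from above 0 to below it. These were Tspan2 between miR-92a-1-5p and Mut.oligo at 6 h (-0.10 with batch) and Gpr17 between miR-124-5p and Mut.oligo at 5 d (-0.53 with batch). The cause was not tested. Same-numbered libraries correlated from -0.50 to 0.77 and were not treated as pairs, although Mut.oligo and untreated libraries numbered 1, 2 and 4 at 5 d share a batch (0.48, 0.77 and 0.10). Depth limits Mag, Mog, Opalin and Fa2h at 5 d.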
